A study of Mus musculus with 32 samples.

Results

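The genes described here are 47 transporters, enzymes and regulators of fatty acid oxidation, pyruvate oxidation and the tricarboxylic acid (TCA) cycle, followed in mouse gastrocnemius (GAS) muscle, the large muscle of the calf, after its motor nerve was cut. The 47 members were taken by gene symbol from a table of 33397 genes, and each of them was found there and passed the filter on low values. RNA-seq covered 32 GAS muscles of C57BL/6 mice, 4 for each of 8 times, namely 0, 1, 3, 5, 7, 14, 21 and 28 d. The study's methods describe young male C57BL/6J mice whose left sciatic nerve had a piece cut out, and the labels name no other genotype or agent for these samples. The labels list sciatic nerve transection as the treatment of every sample, 0 d included, and the 0 d muscles served as the reference for each later time. The table names the samples of the other 7 times by day and 4 samples by the letter C, which no label uses, and these 4 were taken as 0 d because no other time remained. The study's text sets denervated muscle against a sham group that was not denervated, and whether the 4 samples named C are such muscles is stated by no label. No sham-operated muscles labelled with a later time were part of the table, so the operation, the passage of time and the loss of the nerve cannot be told apart here. Samples of a time are replicates by their labels, so the p-values measure the spread between these samples.

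Muscle fibres burn fatty acids in a fixed order of steps. Fatty acids are freed from circulating triglyceride, taken up, bound to coenzyme A, carried into the mitochondrion on carnitine and shortened by the beta-oxidation cycle, and the acetyl-CoA that results enters the TCA cycle together with the acetyl-CoA made from pyruvate. Oxidative fibres depend on these pathways more than fast glycolytic fibres do, and contractile activity driven by the motor nerve is known to sustain them.

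Levels are given as FPKM, the fragments of a gene per kilobase of exon scaled to the fragments of the sample, and the 4 values of a time are listed in the same sample order throughout. Differences are log2 fold changes of FPKM + 1 from limma, with the time after denervation minus 0 d unless stated otherwise, a scale that understates the change of genes of low FPKM. A gene was counted as lower or higher when its Benjamini-Hochberg adjusted p over all 22071 genes tested was under 0.05 and its change was at least 1.5-fold. All comparisons with 0 d share the same 4 reference samples. The samples held 14199900 to 17561600 fragments, so counting error was small for every member except Cpt1b and Etfb. Transcripts of the mitochondrial genome took 14.5% to 18.2% of the fragments at 0 d and 6.7% to 13.5% from 3 d onwards, and a smaller share of these leaves a larger share to all other genes. On the first principal component of all genes tested, 1 sample of 3 d lay at -20.3 while the other samples of 3 d lay between 0.18 and 5.96. Many 3 d counts and test results, but not all, are therefore also given without it. In whole muscle, fewer fibres and less RNA per fibre cannot be told apart. The extraction text of the labels speaks of retinas, but the summed FPKM of 6 retinal genes was at most 0.222 in any sample, whereas that of 8 genes of skeletal muscle fibres was at least 21904.

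In denervated GAS muscles, the summed TCA cycle transcripts of every 1 d sample already lay below those of every 0 d sample. Idh2 and Mdh1 were lower by the test at 1 d in the FPKM as deposited, though Mdh1 was not with TPM. From 3 d, 16 to 20 members of both pathways were lower at each time as deposited. These counts rose after median-ratio scaling and fell with TPM, as given below. At 1 or 3 d, 8 of the 47 members were higher, a share near the 15.3% of all genes that were. Idh2, the NADP-linked isocitrate dehydrogenase of the mitochondrion, fell furthest, and Acot2, a mitochondrial acyl-CoA thioesterase, rose furthest. At 1 d, 2 members were lower and 5 higher, against 2.49% and 6.34% of all genes tested. At 3 d, 17 members were lower and 7 higher, against 6.03% and 13.2% of all genes, or 18 and 6 without the sample that stood apart. At 5, 7, 14, 21 and 28 d the number of lower members was 19, 20, 20, 16 and 18, where 3.86%, 4.1%, 3.83%, 3.93% and 4.1% of all genes were lower. In the FPKM as deposited, 1 or 2 members were higher at each of these 5 times, whereas 14.9%, 15.4%, 14.6%, 11.8% and 14.2% of all genes were. With 14, 21 and 28 d in 1 contrast, 17 members were lower and 1 was higher, against 3.91% and 13.3% of all genes.

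Over the 7 times, 24 members were lower at 1 time or more, 8 were higher at 1 time or more, Cd36 was both, and 16 passed the test at no time. Of all genes tested, 8.19%, 25.7%, 0.716% and 66.8% met these same rules. The 10 members that were lower at every time from 3 d were Lpl, Fabp3, Acadm, Hadh, Acaa2, Cs, Idh2, Idh3a, Mdh1 and Mdh2, and of these Idh2 and Mdh1 were lower at 1 d as well, while 2.28% of all genes were lower at every time from 3 d. With TPM, 3 of the 10 did not pass at 1 of these times, Fabp3 and Cs at 5 d and Mdh1 at 21 d. The highest mean FPKM lay at 0 d for 23 members, at 1 d for 12 and at 3 d for 8. The lowest mean lay at 7 d for 12 members, at 3 d for 11 and at 28 d for 10. Without regard to the test, every sample lay below every sample of 0 d in 11, 25, 33, 34, 33, 32 and 34 members at the 7 times in turn, against 8.6%, 12.3%, 8.93%, 8.47%, 8.13%, 9.99% and 9.06% of all genes. Every sample lay above in 11, 10, 3, 3, 4, 4 and 2 members, against 19.9%, 23%, 35.9%, 32.4%, 36.8%, 32.9% and 36.6% of all genes. Over the 12 late samples the numbers were 31 below and 2 above, against 6.38% and 27.7%.

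Most members are abundant transcripts, and 42 of them belonged to the 3868 tested genes whose FPKM averaged 10 or more. Among these members the number lower was 2, 17, 19, 19, 19, 16 and 18 at the 7 times in turn, where 4.81%, 13.2%, 9.51%, 9.67%, 9.2%, 9.13% and 10.1% of the 3868 genes were. Higher were 4, 5, 0, 0, 1, 0 and 0, where 13.8%, 34.8%, 37.2%, 37.4%, 33.8%, 28.8% and 31.8% of the 3868 genes were. Over the late times 17 of the 42 were lower and 0 higher, against 9.38% and 31.4%. Acsl6 lay below this level.

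**Figure D1:**
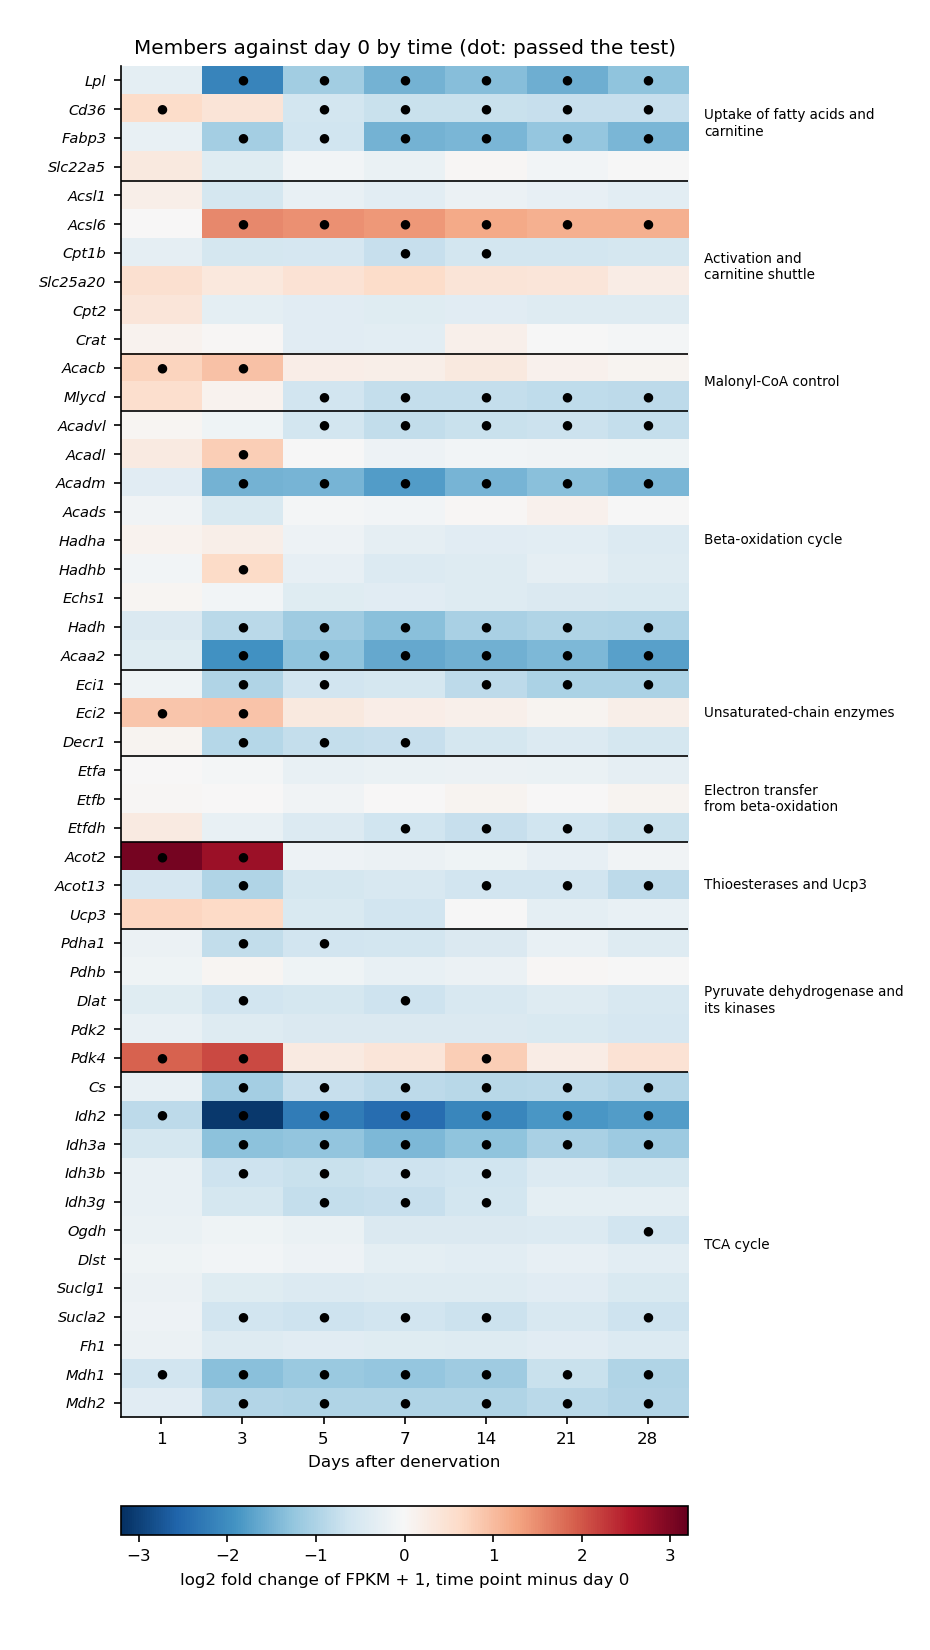
Log2 fold change of FPKM + 1 of each of the 47 members (rows, grouped by role) at 1 to 28 d against 0 d (columns), with blue for lower, red for higher and a dot where the member passed the test. The darkest blue is Idh2 at 3 d (-3.09), the darkest red is Acot2 at 1 d (3.05), and red dots end after 3 d except for Acsl6 and for Pdk4 at 14 d.

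The counts of lower members depended on how the samples were scaled. In the FPKM as deposited, the median log2 fold change of genes averaging 1 FPKM or more was 0.20 at 3 d, 0.32 at 7 d and 0.28 over 14, 21 and 28 d, that is, most genes lay slightly above 0 d. After median-ratio scaling, which sets the typical gene to no change, 5, 25, 34, 37, 33, 29 and 34 members were lower at the 7 times in turn. The share of all genes that was lower under this scaling was 4.69%, 9.17%, 7.7%, 7.92%, 7.55%, 7.17% and 8.11%. Higher members numbered 3 at 1 d, 5 at 3 d and 1 at each later time, where 4.14%, 9.02%, 6.71%, 7.16%, 6.59%, 6.45% and 6.59% of all genes were higher. Over 14, 21 and 28 d together, 34 members were lower under it and 1 was higher, against 7.49% and 6.41% of all genes. Rescaling to TPM, which sets the summed FPKM of each sample to the same total, moved the counts the other way. With TPM, more genes passed the filter on low values, so that shares and adjusted p refer to 25285 genes. On this scale 1, 15, 10, 12, 13, 13 and 15 members were lower at the 7 times in turn, against 2.47%, 5.46%, 3.2%, 3.46%, 3.25%, 3.6% and 3.52% of all genes. Higher members then numbered 8, 9, 2, 2, 3, 1 and 2, against 10.5%, 19.5%, 24.9%, 25.9%, 26.7%, 18.8% and 24.8%. Over 14, 21 and 28 d together, 13 members were lower with TPM and 2 were higher, against 3.42% and 23.6% of all genes.

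**Figure D2:**
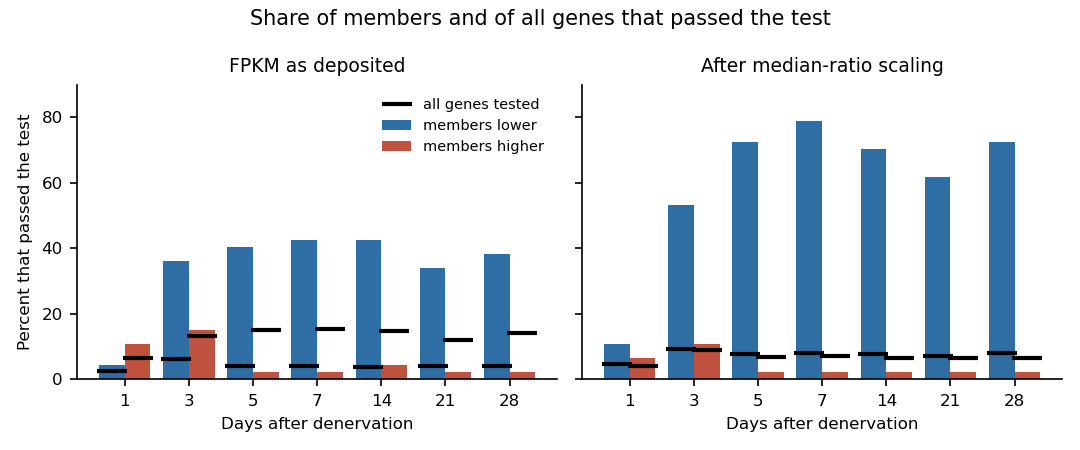
Percent of the 47 members that were lower (blue bars) or higher (red bars) than at 0 d at each time, for FPKM as deposited (left) and after median-ratio scaling (right), with black lines for the percent of all genes tested. Blue bars exceed their line at every time in both panels, and after 3 d the red bars lie below theirs.

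The members' share of all fragments was computed as a level that needs no test of single genes. It was 1.44% to 1.61% in the 4 samples of 0 d and 1.46% to 1.63% at 1 d, which overlapped. It was 1.18% to 1.42% at 3 d and 0.940% to 0.999% at 7 d. From 3 d onwards every sample lay below every sample of 0 d, and the values of 14, 21 and 28 d ran from 0.961% to 1.08%. The separation at 3 d depended on the measure. As a share of summed FPKM, the members took 1.05% to 1.16% at 0 d, 1.12% to 1.27% at 1 d and 0.915% to 1.13% at 3 d. Both later ranges overlapped with 0 d, whereas from 5 d this share was at most 0.876%.

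**Figure D3:**
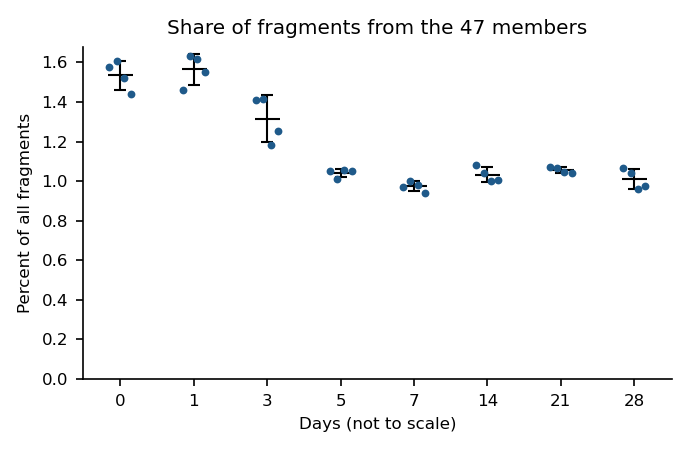
Percent of all fragments that came from the 47 members (vertical axis) in each sample (points) at each time (horizontal axis, not to scale), with bars for the mean ± SD of 4 samples. The mean was 1.54% at 0 d, 1.32% at 3 d and 0.973% at 7 d.

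Promoters are shown for 5 of the 7 members with the largest changes at any time, because these moved in opposite directions at 3 d, Idh2 and Acadm down and Acot2, Pdk4 and Acsl6 up. The other two are Lpl and Acaa2. Each window holds the 250 bases before a RefSeq transcript start (GRCm38.p6), 5′ to 3′ on the gene's strand. Genes of oxidative metabolism are known targets of the estrogen-related receptors, which bind TNAAGGTCA, and of the PPAR receptors, which bind AGGTCA repeated after 1 base, and capitals mark these motifs and the shorter AGGTCA on either strand, where TGACCT is AGGTCA read on the other strand. The windows are Idh2 at chr7:80115351-80115600 (minus strand), Acadm at chr3:153944644-153944893 (minus strand), Acot2 at chr12:83987611-83987860 (plus strand), Pdk4 at chr6:5496279-5496528 (minus strand) and the first of 3 Acsl6 windows at chr11:54303574-54303823 (plus strand).
Idh2: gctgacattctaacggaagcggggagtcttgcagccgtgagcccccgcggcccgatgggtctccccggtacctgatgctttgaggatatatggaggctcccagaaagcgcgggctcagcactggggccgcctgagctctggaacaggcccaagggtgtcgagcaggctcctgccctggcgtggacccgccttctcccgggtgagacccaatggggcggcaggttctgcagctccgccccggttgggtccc
Acadm: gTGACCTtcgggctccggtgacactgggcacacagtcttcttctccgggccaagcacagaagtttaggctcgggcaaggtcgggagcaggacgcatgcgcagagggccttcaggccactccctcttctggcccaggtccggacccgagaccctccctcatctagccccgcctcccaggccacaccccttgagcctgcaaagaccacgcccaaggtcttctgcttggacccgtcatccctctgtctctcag
Acot2: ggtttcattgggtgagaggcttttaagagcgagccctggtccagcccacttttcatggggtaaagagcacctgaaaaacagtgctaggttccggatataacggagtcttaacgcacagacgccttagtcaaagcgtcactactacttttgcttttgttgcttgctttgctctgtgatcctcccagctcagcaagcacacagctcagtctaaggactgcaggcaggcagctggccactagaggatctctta
Pdk4: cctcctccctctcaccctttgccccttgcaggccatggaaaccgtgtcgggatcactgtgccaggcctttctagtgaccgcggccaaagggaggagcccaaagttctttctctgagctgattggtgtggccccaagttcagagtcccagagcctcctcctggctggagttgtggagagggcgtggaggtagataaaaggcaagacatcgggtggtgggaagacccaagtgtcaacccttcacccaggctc
Acsl6: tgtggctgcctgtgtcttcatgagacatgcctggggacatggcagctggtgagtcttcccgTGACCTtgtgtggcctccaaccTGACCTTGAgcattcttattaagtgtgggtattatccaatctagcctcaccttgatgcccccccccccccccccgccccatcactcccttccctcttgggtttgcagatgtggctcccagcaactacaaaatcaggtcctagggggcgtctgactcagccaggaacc
The Acadm window holds AGGTCA once and the Acsl6 window 2 times, once within TNAAGGTCA, while none of the motifs is written in the other 3. Windows were found for 40 of the 47 members, 49 windows in all. AGGTCA occurs in 8 of these 49 (16.3%) and in 14% of the 32851 windows of all genes, and the 8 members are Acadm, Acadvl, Acsl6, Cd36, Echs1, Fh1, Sucla2 and Ucp3. TNAAGGTCA occurs in 1 member window (2.04%) and in 1.14% of all windows, and the repeat with 1 base between its copies in no member window and in 0.0335% of all windows. These letters describe the windows only, and sequence further from the start was not used here.

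Of the 4 genes of uptake, 2 were lower at 3 d and 3 at 7 d and over 14, 21 and 28 d, or 2 in each case with TPM. As deposited, 6.03%, 4.1% and 3.91% of all genes were lower at these times. Lpl, the lipase that frees fatty acids from circulating triglyceride, measured 78.4, 73.2, 88.9 and 75.9 FPKM at 0 d. It measured 13.1, 20.3, 23.4 and 14.7 FPKM at 3 d, and its 12 values of 14, 21 and 28 d ran from 22.1 to 37.3 with a median of 29.5 FPKM. No sample from 3 d onwards reached the lowest sample of 0 d. Against 0 d, Lpl had a log2 fold change of -2.12 ± 0.14 (SE, limma adjusted p = 4.22e-13) at 3 d, -1.99 without the sample that stood apart, and -1.41 ± 0.12 (SE, limma adjusted p = 2.64e-11) over the 12 samples of 14, 21 and 28 d.
Fabp3, the fatty acid binding protein of the muscle cytosol and the most abundant member, measured 932, 818, 709 and 747 FPKM at 0 d and 289, 201, 343 and 299.6 FPKM at 7 d. Its 12 values of 14, 21 and 28 d ran from 234 to 389 with a median of 295 FPKM, below every sample of 0 d. On the log2 scale Fabp3 differed from 0 d by -1.52 ± 0.18 (SE, limma adjusted p = 4.82e-08) at 7 d and -1.39 ± 0.15 (SE, limma adjusted p = 4.62e-09) at 14, 21 and 28 d together.
Cd36, the fatty acid translocase of the membrane, moved in both directions. It measured 159, 153, 142 and 139 FPKM at 0 d, 197, 231, 239 and 233 FPKM at 1 d and 88.01, 91.5, 86.9 and 93.7 FPKM at 7 d, without overlap between any of these times. Cd36 thus had a log2 fold change of 0.60 ± 0.08 (SE, limma adjusted p = 2.27e-06) at 1 d, which became 0.41 and no longer passed after median-ratio scaling, and -0.71 ± 0.08 (SE, limma adjusted p = 4.81e-08) at 7 d, where it did not pass with TPM (-0.52). With TPM it did not pass at 5, 14 or 28 d either, nor over the late times together (-0.56). Slc22a5, the carnitine transporter of the plasma membrane, had means of 4.12 to 7.31 FPKM over the 8 times and passed the test at none of them as deposited. After median-ratio scaling, 3 of the 4 uptake genes, all but Cd36, were lower at 3 d.

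Of the 6 genes that activate fatty acids and move them onto carnitine, 1 was higher over 14, 21 and 28 d and none was lower, which became 1 and 3 after median-ratio scaling. As deposited, 13.3% of all genes were higher and 3.91% lower over these times. The higher one, Acsl6, an acyl-CoA synthetase best known from brain, measured 2.64, 2.88, 3.11 and 3.15 FPKM at 0 d and 2.42, 2.69, 3.17 and 3.58 FPKM at 1 d, which overlapped. It then measured 14.9, 10.1, 8.61 and 8.95 FPKM at 3 d, and its 12 values of 14, 21 and 28 d ran from 6.78 to 8.96 with a median of 7.93 FPKM. Every sample from 3 d onwards lay above every sample of 0 d and 1 d. For Acsl6, the log2 fold change was 1.53 ± 0.12 (SE, limma adjusted p = 1.36e-11) at 3 d, 1.37 without the sample that stood apart, and 1.17 ± 0.10 (SE, limma adjusted p = 4.68e-11) at 14, 21 and 28 d together. At 28 d Acsl6 was the 1 member that was higher in the FPKM as deposited, and with TPM Pdk4 passed there too (0.64). Acsl1, the main acyl-CoA synthetase of muscle, had a log2 fold change of -0.56 ± 0.07 (SE) at 3 d, -0.50 without the sample that stood apart, and -0.34 ± 0.07 (SE) at 28 d, with adjusted p under 0.05 but less than a 1.5-fold change, and it overlaps Gm45244 on the opposite strand by 1039 exon bases.
Cpt1b, the muscle isoform of the outer-membrane carnitine palmitoyltransferase and the usual marker of this step, was measured with 14 to 86 fragments in each sample. In the annotation it shares 2744 of its 3372 exon bases with Gm44502, a gene on the same strand, so that reads may have been split or discarded in counting and its level is uncertain. It measured 0.866, 1.39, 1.67 and 1.51 FPKM at 0 d and 0.354, 0.322, 0.247 and 0.706 FPKM at 7 d, all below 0 d. Against 0 d, Cpt1b had a log2 fold change of -0.74 ± 0.10 (SE, limma adjusted p = 5.14e-07) at 7 d, and over 14, 21 and 28 d it was -0.58 ± 0.08 (SE), just short of 1.5-fold and passing with TPM (-0.74) and after median-ratio scaling (-0.77), with values of 0.428 to 0.767 and a median of 0.534 FPKM. Its partner of the inner membrane, Cpt2, and the carnitine acetyltransferase Crat passed at no time in the FPKM as deposited. After median-ratio scaling, 4 of the 6 genes, namely Acsl1, Cpt1b, Cpt2 and Crat, were lower at 5 and 7 d. Slc25a20, the translocase that exchanges acylcarnitine for carnitine, lay in every sample of 1 to 21 d above every sample of 0 d, with a largest log2 fold change of 0.58 ± 0.07 (SE) at 7 d that stayed under 1.5-fold and became 0.21 after median-ratio scaling and 0.79, then passing, with TPM.

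Malonyl-CoA, the inhibitor of Cpt1b, is made at the mitochondrion by Acacb and removed by Mlycd. Acacb measured 27.5, 30.5, 38.5 and 32.8 FPKM at 0 d, 50.2, 51.4, 55.99 and 55.1 FPKM at 1 d and 73.97, 69.8, 53.9 and 56.1 FPKM at 3 d. Both later sets of values lay above every sample of 0 d, and the values of 5 to 28 d overlapped with 0 d again. On the log2 scale Acacb differed from 0 d by 0.71 ± 0.12 (SE, limma adjusted p = 1.55e-05) at 1 d, not passing after median-ratio scaling (0.53), and 0.95 ± 0.12 (SE, limma adjusted p = 6.47e-08) at 3 d, or 0.87 without the sample that stood apart.
Mlycd measured 30.8, 32.3, 33.5 and 31.4 FPKM at 0 d, 40.3, 42.9, 54.5 and 52.7 FPKM at 1 d and 19.4, 18.6, 13.98 and 17.8 FPKM at 28 d. All samples of 1 d lay above 0 d without passing the test (0.55 ± 0.11 SE), which it did with TPM (0.67), and all samples from 5 d lay below it. Mlycd thus had a log2 fold change of -0.85 ± 0.11 (SE, limma adjusted p = 1.95e-07) at 28 d and -0.81 ± 0.09 (SE, limma adjusted p = 8.88e-09) at 14, 21 and 28 d together, with values of 13.98 to 21.1 and a median of 17.98 FPKM.

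Of the 9 enzymes of the beta-oxidation cycle, 3 were lower and 2 higher at 3 d, or 4 and 0 after median-ratio scaling. At 7 d and over 14, 21 and 28 d, 4 were lower and none higher, or 7 lower after median-ratio scaling. Of all genes as deposited, 6.03%, 4.1% and 3.91% were lower and 13.2%, 15.4% and 13.3% higher at 3 d, 7 d and the late times. Acyl-CoA dehydrogenases for very long (Acadvl), long (Acadl), medium (Acadm) and short chains (Acads) open each turn of the cycle. Of these, as deposited, Acadm fell at every time from 3 d and Acadvl at every time from 5 d. Acadl rose at 3 d only, and Acads passed the test at no time, both as deposited. Acadm measured 131, 134, 113 and 115 FPKM at 0 d and 34.6, 32.4, 37.1 and 35.4 FPKM at 7 d, and its 12 values of 14, 21 and 28 d ran from 40.1 to 51.8 with a median of 46.1 FPKM. Every sample from 3 d onwards lay below every sample of 0 d. For Acadm, the log2 fold change was -1.79 ± 0.10 (SE, limma adjusted p = 4.14e-15) at 7 d and -1.42 ± 0.08 (SE, limma adjusted p = 4.24e-15) at 14, 21 and 28 d together. Acadvl went from 83.7 ± 4.86 FPKM at 0 d to 47.6 ± 1.36 FPKM at 7 d (mean ± SD, n = 4), a log2 fold change of -0.80 ± 0.07 (SE, limma adjusted p = 9.03e-11). With TPM it passed at 7 and 28 d but not over 14, 21 and 28 d together (-0.56). Acadvl shares 1151 exon bases with Dvl2 on the opposite strand, and strand use in the counting was not given in the sources used here.
Acadl measured 148, 159, 141 and 116 FPKM at 0 d and 243, 269.6, 218 and 238 FPKM at 3 d. All 4 samples of 3 d exceeded 0 d, and from 5 d the values overlapped with 0 d. Its log2 fold change was 0.78 ± 0.08 (SE, limma adjusted p = 2.80e-09) at 3 d, 0.78 without the sample that stood apart, and 0.55, no longer passing, after median-ratio scaling.

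Acaa2, the mitochondrial thiolase that splits off acetyl-CoA from medium chains, measured 136, 138, 115 and 112 FPKM at 0 d and 24.1, 35.1, 35.8 and 34.5 FPKM at 3 d. Its 12 values of 14, 21 and 28 d ran from 34.1 to 50.6 with a median of 40.8 FPKM, less than any sample of 0 d. Against 0 d, Acaa2 had a log2 fold change of -1.93 ± 0.13 (SE, limma adjusted p = 4.54e-13) at 3 d, -1.80 without the sample that stood apart, and -1.57 ± 0.11 (SE, limma adjusted p = 4.14e-13) at 14, 21 and 28 d together. Hadh, the dehydrogenase that acts on medium and short chains, went from 40.1 ± 4.45 FPKM at 0 d to 15.3 ± 1.12 FPKM at 7 d (mean ± SD, n = 4), a log2 fold change of -1.33 ± 0.07 (SE, limma adjusted p = 4.26e-15).
Hadha and Hadhb, the subunits of the trifunctional protein that carries out the later steps on long chains, passed as lower at no time in the FPKM as deposited. Hadhb measured 65.8, 64.8, 54.5 and 59.8 FPKM at 0 d and 112, 91.1, 83.6 and 94.1 FPKM at 3 d, where all samples were higher, and its log2 fold change was 0.62 ± 0.09 (SE, limma adjusted p = 2.32e-06). It no longer passed after median-ratio scaling (0.39) or without the sample that stood apart (0.54). Hadha passed at no time as deposited, with log2 fold changes from 0.19 at 3 d to -0.45 at 28 d. Echs1, the hydratase of short chains, also passed at no time as deposited and had its largest log2 fold change, -0.49 ± 0.09 (SE), at 28 d. In the sum over the 9 enzymes of the cycle, 674 ± 59.9 FPKM at 0 d became 609 ± 43.0 at 3 d and 391 ± 4.50 at 7 d (mean ± SD, n = 4).

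**Figure D4:**
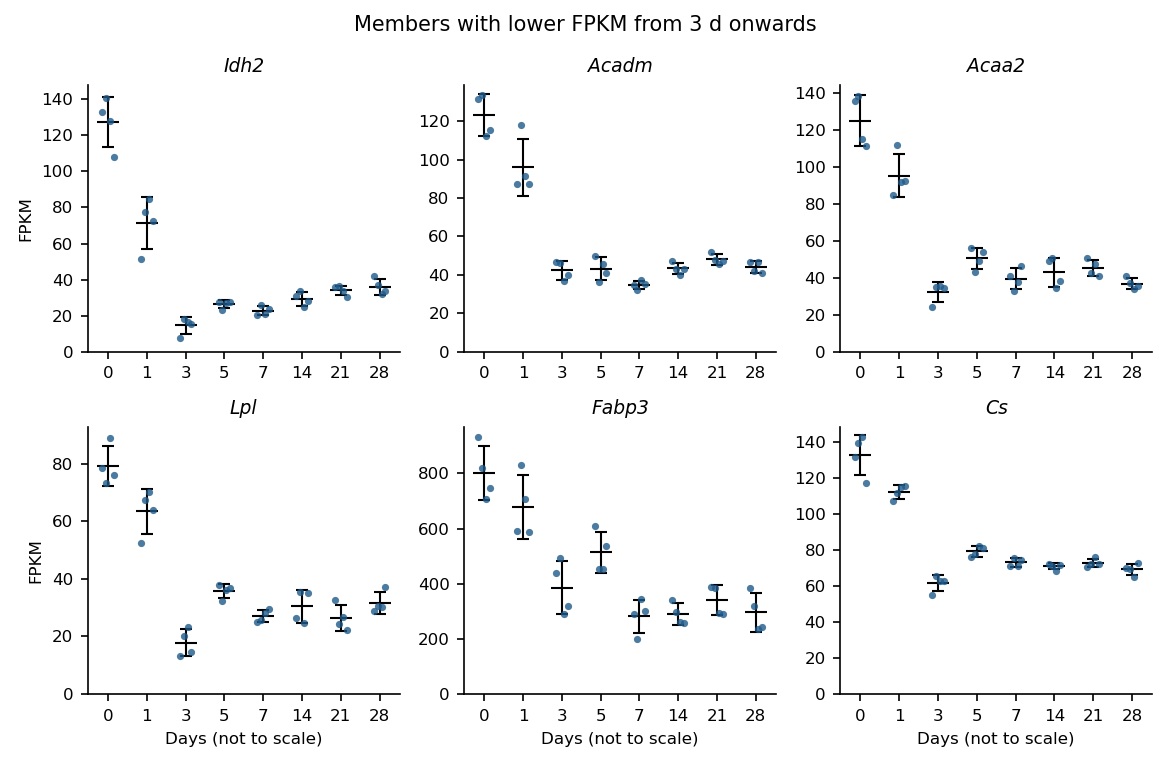
FPKM (vertical axes) of Idh2, Acadm, Acaa2, Lpl, Fabp3 and Cs in each sample (points) at each time (horizontal axes, not to scale), with bars for the mean ± SD of 4 samples. From 3 d onwards every point lies below every point of 0 d in all 6 panels, and Idh2 is lowest at 3 d, at 14.7 FPKM on average, and 36.1 FPKM at 28 d.

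Enzymes that feed unsaturated chains into the cycle went in opposite directions. Eci1, the mitochondrial enoyl-CoA isomerase, measured 53.4, 53.9, 45.9 and 41.8 FPKM at 0 d and 24.6, 24.2, 21.5 and 24.3 FPKM at 28 d, and its 12 values of 14, 21 and 28 d ran from 21.5 to 29.5 with a median of 24.3 FPKM. The late values lay below every sample of 0 d, with a log2 fold change of -1.01 ± 0.08 (SE, limma adjusted p = 7.25e-11) at 28 d and -0.95 ± 0.07 (SE, limma adjusted p = 2.41e-12) at the 3 late times together. Eci2, an isomerase of peroxisomes and mitochondria, measured 6.86, 6.53, 6.66 and 6.77 FPKM at 0 d, 13.2, 14.7, 13.01 and 12.6 FPKM at 1 d and 16.5, 12.9, 12.4 and 12.4 FPKM at 3 d. Every sample of 1 and 3 d was higher, with log2 fold changes of 0.90 ± 0.08 (SE, limma adjusted p = 9.85e-10) and 0.91 ± 0.08 (SE, limma adjusted p = 2.54e-10), the latter 0.81 without the sample that stood apart, and from 5 d it no longer passed the test although all samples still lay above 0 d. Decr1, the dienoyl-CoA reductase, was lower at 3, 5 and 7 d but did not pass at 7 d with TPM (-0.57), with a log2 fold change of -0.90 ± 0.08 (SE, limma adjusted p = 7.69e-11) at 3 d, -0.84 without the sample that stood apart, and -0.55 ± 0.08 (SE), short of 1.5-fold, at 28 d.

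Electrons from beta-oxidation pass through Etfa and Etfb to Etfdh, the oxidoreductase that hands them to ubiquinone. Etfdh measured 28.2, 26.9, 24.3 and 25.5 FPKM at 0 d and 17.1, 15.2, 14.3 and 14.9 FPKM at 14 d. All 12 values of 14, 21 and 28 d, from 14.3 to 17.1 with a median of 15.7 FPKM, lay below 0 d. On the log2 scale Etfdh differed from 0 d by -0.73 ± 0.07 (SE, limma adjusted p = 1.62e-09) at 14 d and -0.70 ± 0.06 (SE, limma adjusted p = 5.34e-11) at 14, 21 and 28 d together, and with TPM neither passed (-0.55 and -0.55). Etfa passed at no time as deposited, with means of 124 to 155 FPKM. After median-ratio scaling, 2 of these 3 genes were lower at 5, 7 and 28 d. Etfb was measured with 3 to 17 fragments in each sample and shares 617 of its 1164 exon bases with Gm45233 on the same strand, which is listed at 0 in every sample of 0, 1, 3, 7 and 28 d, so no statement on Etfb is possible at this depth.

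Acot2 cleaves fatty acyl-CoA inside the mitochondrion, Acot13 is a thioesterase of long chains, and Ucp3 is a mitochondrial carrier protein whose transcript is known to follow fatty acid supply. Acot2 measured 9.72, 9.06, 10.3 and 8.204 FPKM at 0 d, 81.4, 77.4, 90.5 and 89 FPKM at 1 d and 103, 86.4, 44.1 and 52.3 FPKM at 3 d. All 8 samples of 1 and 3 d were far above 0 d, and at 3 d the samples themselves were spread over more than a 2-fold range. Acot2 thus had a log2 fold change of 3.05 ± 0.17 (SE, limma adjusted p = 8.64e-14) at 1 d and 2.73 ± 0.17 (SE, limma adjusted p = 1.36e-13) at 3 d, or 2.53 without the sample that stood apart, and -0.18 ± 0.14 (SE) at 14, 21 and 28 d together, where the 12 values of 6.77 to 9.78 FPKM (median 7.799) overlapped with 0 d. Acot1, a close paralogue of Acot2 looked up after these values were seen, went from 0.386 ± 0.153 FPKM at 0 d to 5.29 ± 1.22 at 1 d and 1.72 ± 0.323 at 3 d (mean ± SD, n = 4), and how reads common to both were counted was not given in the sources used here.
Acot13 went the other way, with 137, 136, 108 and 118 FPKM at 0 d and 73.4, 67.7, 56.6 and 56.5 FPKM at 3 d. Every sample after 0 d lay below every sample of 0 d. For Acot13, the log2 fold change was -0.97 ± 0.08 (SE, limma adjusted p = 7.03e-11) at 3 d, -1.04 without the sample that stood apart, and -0.69 ± 0.07 (SE, limma adjusted p = 8.78e-10) at 14, 21 and 28 d together, which did not pass with TPM (-0.52) and where values ran from 64 to 87.6 with a median of 78.3 FPKM. Ucp3 measured 34.2, 39.5, 46.2 and 42.3 FPKM at 0 d and 56.4, 60.6, 73.4 and 73.8 FPKM at 1 d, all higher than 0 d, and the log2 fold change of 0.69 ± 0.27 (SE, limma adjusted p = 0.0515) did not pass, whereas with TPM it did (0.81).

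Pyruvate dehydrogenase converts pyruvate into acetyl-CoA, and its kinases Pdk2 and Pdk4 switch it off. Pdk4, the kinase known to rise in fasting and with fatty acid use, measured 127, 135, 148 and 119 FPKM at 0 d, 444, 414, 560.1 and 565 FPKM at 1 d and 625, 657, 488 and 525 FPKM at 3 d. Every sample of 1 and 3 d was more than 2-fold above the highest sample of 0 d. Against 0 d, Pdk4 had a log2 fold change of 1.89 ± 0.20 (SE, limma adjusted p = 1.63e-08) at 1 d and 2.101 ± 0.20 (SE, limma adjusted p = 7.01e-10) at 3 d, or 2.06 without the sample that stood apart. At 14 d it measured 234, 217, 237 and 231 FPKM and passed the test again (0.79 ± 0.20 SE, limma adjusted p = 0.00166), which it did not after median-ratio scaling (0.40). Over 14, 21 and 28 d together its values ran from 123 to 270.3 with a median of 191 FPKM, and the log2 fold change of 0.50 ± 0.16 (SE, limma adjusted p = 0.0114) was below 1.5-fold but passed with TPM (0.68).
Pdk4 was spread more widely at 7 and 28 d than at 14 d, where it was 217 to 237 FPKM, and at 21 d, where it was 151 to 165 FPKM. At 28 d it measured 270.3, 254, 123 and 129.8 FPKM, and Ucp3 in the same samples measured 54.1, 57.5, 20.7 and 20.3 FPKM. At 7 d Pdk4 measured 199.9, 244, 133 and 136 FPKM and Ucp3 36.1, 35.8, 19.1 and 18.2 FPKM. In both times the first 2 samples listed were high in both genes and the last 2 were low in both. Ucp3 also parted the first 2 samples from the last 2 without overlap at every other time. The first 2 were the higher ones at 3, 14 and 21 d and the lower ones at 0, 1 and 5 d. Pdk4 was parted in this way at 1, 3, 5 and 21 d but not at 0 and 14 d. What the order of the samples stands for is stated by no label. These descriptions were made after the values were seen and without a test. Pdk2 passed at no time as deposited and had its largest log2 fold change, -0.53 ± 0.09 (SE), at 28 d. After median-ratio scaling, 4 of the 5 genes of this group, all but Pdk4, were lower at 7 and 14 d. Among the subunits of the enzyme itself, in the FPKM as deposited, Pdha1 was lower at 3 and 5 d (-0.79 ± 0.09 SE, limma adjusted p = 8.09e-09 at 3 d, or -0.84 without the sample that stood apart), Dlat at 3 and 7 d (-0.67 ± 0.07 SE, limma adjusted p = 8.05e-09 at 7 d), and Pdhb, with means of 82.1 to 101 FPKM, at no time. Dlat did not pass at 3 d without the sample that stood apart (-0.57), nor with TPM at 3 d (-0.45) or 7 d (-0.49), and Pdha1 did not pass at 5 d with TPM (-0.42).

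**Figure D5:**
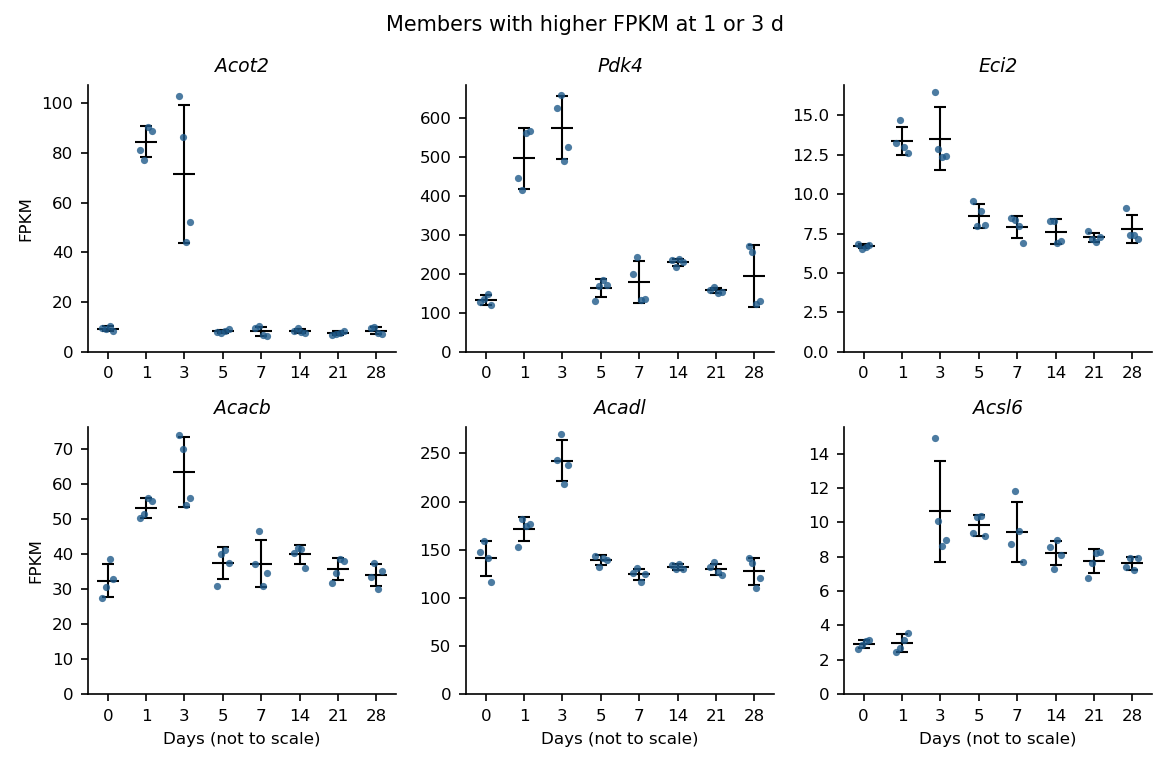
FPKM (vertical axes) of Acot2, Pdk4, Eci2, Acacb, Acadl and Acsl6 in each sample (points) at each time (horizontal axes, not to scale), with bars for the mean ± SD of 4 samples. Acot2 averaged 84.6 FPKM at 1 d against 9.32 at 0 d and 8.19 at 7 d, and Acsl6 averaged 7.61 FPKM at 28 d against 2.95 at 0 d.

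The transcripts of the TCA cycle lay below 0 d as a group. In the FPKM as deposited, all 12 of its members had an estimate below 0 at each of the 7 times, as had 26.4% to 40.2% of all genes tested at these times. With TPM, the estimates of Dlst at 3 d (0.07) and 5 d (0.03) and of Ogdh at 3 d (0.04) lay above 0. As deposited, none was higher at any time, and 7 were lower at 3 d, 8 at 7 d and 6 over the late times, which became 10, 12 and 12 after median-ratio scaling and 5, 5 and 5 with TPM. Among all genes as deposited, 6.03%, 4.1% and 3.91% were lower at these times. The summed FPKM of the 12 at 0, 1, 3, 7 and 28 d was 1677 ± 101, 1292 ± 69.8, 908 ± 56.0, 892 ± 37.1 and 959 ± 22.4 (mean ± SD, n = 4).
Idh2 makes NADPH while converting isocitrate into 2-oxoglutarate. It measured 133, 141, 128 and 108 FPKM at 0 d, 51.3, 77.6, 84.9 and 72.7 FPKM at 1 d and 7.79, 18.4, 16.8 and 15.6 FPKM at 3 d. No sample of a later time reached the lowest sample of 0 d, and the lowest value of all was that of the 3 d sample that stood apart. On the log2 scale Idh2 differed from 0 d by -0.84 ± 0.17 (SE, limma adjusted p = 2.62e-04) at 1 d and -3.09 ± 0.17 (SE, limma adjusted p = 5.85e-15) at 3 d, or -2.84 without that sample. It measured 20.3, 25.8, 21.01 and 23.8 FPKM at 7 d, and its 12 values of 14, 21 and 28 d ran from 24.8 to 41.8 with a median of 33.6 FPKM, a log2 fold change of -1.92 ± 0.14 (SE, limma adjusted p = 1.82e-12).
The NAD-linked isocitrate dehydrogenase, built of Idh3a, Idh3b and Idh3g, was lower to unequal degrees. Its catalytic subunit Idh3a went from 142 ± 10.1 FPKM at 0 d to 51.5 ± 4.92 at 7 d and 63.2 ± 5.25 at 28 d (mean ± SD, n = 4), with a log2 fold change of -1.45 ± 0.08 (SE, limma adjusted p = 2.96e-15) at 7 d. Idh3b and Idh3g had log2 fold changes of -0.66 ± 0.08 (SE) and -0.73 ± 0.06 (SE) at 7 d, where both were lower but did not pass with TPM (-0.47 and -0.54), and of -0.56 ± 0.08 (SE) and -0.31 ± 0.06 (SE) at 28 d, where neither passed.

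Cs, the citrate synthase that opens the cycle and the usual marker of mitochondrial content, measured 131, 139, 142 and 117 FPKM at 0 d and 55.2, 65.6, 62.5 and 62.7 FPKM at 3 d. Its 12 values of 14, 21 and 28 d ran from 65.1 to 75.9 with a median of 71.2 FPKM, and no sample after 0 d overlapped with it. Cs thus had a log2 fold change of -1.09 ± 0.05 (SE, limma adjusted p = 6.43e-16) at 3 d, -1.04 without the sample that stood apart, and -0.89 ± 0.04 (SE, limma adjusted p = 5.39e-16) at 14, 21 and 28 d together. The malate dehydrogenases of the cytosol (Mdh1) and the mitochondrion (Mdh2) were lower at every time from 3 d. Mdh1 measured 398, 390.1, 288 and 344 FPKM at 0 d, 225, 254, 219 and 220.4 FPKM at 1 d and 169.6, 138, 121 and 131 FPKM at 3 d, with log2 fold changes of -0.62 ± 0.10 (SE, limma adjusted p = 7.30e-06) and -1.34 ± 0.10 (SE, limma adjusted p = 1.62e-12). With TPM it did not pass at 1 d (-0.50), and without the sample that stood apart it was -1.43 at 3 d. Mdh2 went from 170.3 ± 13.4 FPKM at 0 d to 86.3 ± 5.42 at 7 d (mean ± SD, n = 4), a log2 fold change of -0.97 ± 0.06 (SE, limma adjusted p = 9.75e-14).
Sucla2, the ATP-forming subunit of succinyl-CoA synthetase, was lower at 3, 5, 7, 14 and 28 d, with a log2 fold change of -0.68 ± 0.09 (SE, limma adjusted p = 2.23e-07) at 14 d, and with TPM it passed at none of them (-0.47 at 14 d). Ogdh, the first subunit of the 2-oxoglutarate dehydrogenase complex, was lower at 28 d only (-0.62 ± 0.08 SE, limma adjusted p = 3.38e-07) and did not pass there with TPM (-0.45). Dlst, Suclg1 and Fh1 passed at no time as deposited. Their estimates over 14, 21 and 28 d were -0.32 ± 0.03 (SE), -0.42 ± 0.05 (SE) and -0.41 ± 0.04 (SE), each with adjusted p under 0.05 (limma) and every sample below every sample of 0 d, but with less than a 1.5-fold change. After median-ratio scaling, all 12 members of the cycle were lower at 7, 14 and 28 d.

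The times 7 d and 3 d were also compared directly, a comparison added after the values were seen. At 7 d, 10 members were lower and 2 higher than at 3 d, against 2.61% and 5.08% of all genes. The 10 were Acot2, Pdk4, Ucp3, Cd36, Hadhb, Acadl, Mlycd, Acacb, Eci2 and Acadvl, with log2 fold changes from -2.92 for Acot2 to -0.67 for Acadvl. Of these, Acot2, Pdk4, Hadhb, Acadl, Acacb and Eci2 had been higher than 0 d at 3 d, while Ucp3, Cd36, Mlycd and Acadvl had not passed at 3 d in the FPKM as deposited. With TPM, Ucp3 (0.80) and Cd36 (0.59) passed as higher at 3 d. Ucp3, which in the FPKM as deposited had passed against 0 d at no time, was lower at 7 d than at 3 d, with a log2 fold change of -1.24 ± 0.27 (SE, limma adjusted p = 6.20e-04). The 2 that rose were Idh2 (0.66 ± 0.17 SE, limma adjusted p = 0.00384) and Lpl (0.61 ± 0.14 SE, limma adjusted p = 0.00153), and neither passed without the 3 d sample that stood apart or after median-ratio scaling.
Few members differed between 7 and 28 d. None was lower at 28 d than at 7 d and only Idh2 was higher, against 1.46% and 1.5% of all genes. At an adjusted p under 0.05 alone (limma), 3 members were lower and 6 higher, and the share of all genes at this threshold is not given here. Idh2 had values of 20.3, 25.8, 21.01 and 23.8 FPKM at 7 d and 41.8, 37, 31.8 and 33.7 FPKM at 28 d, without overlap and with a log2 fold change of 0.64 ± 0.17 (SE, limma adjusted p = 0.00961). It no longer passed when the first sample of 28 d was left out.

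Other genes of the same and of related pathways were examined as lists. Of 29 further genes of the TCA cycle and pyruvate metabolism, 12 were lower and 1 higher at 3 d, 14 and 1 at 7 d, and 12 and 1 over 14, 21 and 28 d, where 6.03%, 4.1% and 3.91% of all genes were lower and 13.2%, 15.4% and 13.3% higher. After median-ratio scaling, 18, 21 and 18 were lower and 0, 1 and 1 higher. Without the 3 d sample that stood apart, 13 were lower and 2 higher at 3 d. As deposited the list had a median log2 fold change of -0.39 over the late times against 0.13 for all genes tested. The subunits of succinate dehydrogenase, which oxidises succinate within the cycle, were among them. Over the late times the log2 fold change of Sdha was -0.69 ± 0.03 (SE, limma adjusted p = 5.46e-16), that of Sdhb -0.78 ± 0.08 (SE, limma adjusted p = 1.87e-09), that of Sdhc -0.72 ± 0.05 (SE, limma adjusted p = 1.41e-12) and that of Sdhd -0.69 ± 0.07 (SE, limma adjusted p = 5.31e-10), whereas Dld, the subunit common to the dehydrogenase complexes, had -0.38 ± 0.07 (SE, limma adjusted p = 1.60e-05), less than a 1.5-fold change. The largest changes of this list were in Got1, an aminotransferase of the malate-aspartate shuttle (-1.20 ± 0.13 SE, limma adjusted p = 7.00e-09), Mpc2, a subunit of the mitochondrial pyruvate carrier (-1.05 ± 0.05 SE, limma adjusted p = 6.44e-16), and Me3, a malic enzyme (-1.01 ± 0.05 SE, limma adjusted p = 2.63e-15).
The list of fatty acid oxidation genes outside the 47 was broader and less uniform. It also holds genes of lipid droplets and lipolysis such as Plin2 and Pnpla2, of fatty acid synthesis such as Acaca and of propionate metabolism such as Pcca. Its counts are therefore not those of oxidation enzymes alone. Of its 37 genes, 4 were lower and 8 higher at 3 d, which became 10 and 6 after median-ratio scaling. Over 14, 21 and 28 d, 2 were lower and 9 higher, which became 5 and 3 after median-ratio scaling, with a median of 0.07 over the late times. As deposited, 6.03% of all genes were lower and 13.2% higher at 3 d, and 3.91% and 13.3% over the late times, so the late share of lower genes in the list was near that of all genes. Without the 3 d sample that stood apart, 3 were lower and 8 higher at 3 d. The largest late changes were in Acsl3, an acyl-CoA synthetase (2.15 ± 0.08 SE, limma adjusted p = 4.49e-19), Plin5, a lipid droplet protein of oxidative tissue (-1.83 ± 0.16 SE, limma adjusted p = 7.79e-11), and Slc27a1, a fatty acid transport protein (-1.15 ± 0.14 SE, limma adjusted p = 4.22e-08). Cpt1a, the isoform of liver and most other tissues, went from 3.51 ± 0.297 FPKM at 0 d to 6.64 ± 2.42 at 3 d (mean ± SD, n = 4), a log2 fold change of 0.70 ± 0.20 (SE, limma adjusted p = 0.0051), or 0.91 without the sample that stood apart. Of 5 genes of ketone body metabolism, 3 were lower over the late times, namely Bdh1 (-1.75 ± 0.16 SE, limma adjusted p = 1.41e-10), Oxct1 (-0.71 ± 0.08 SE, limma adjusted p = 1.53e-08) and Acat1 (-0.60 ± 0.05 SE, limma adjusted p = 1.70e-10), the enzymes by which muscle uses ketone bodies.

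Markers of the cells in the muscle moved over the same times. For comparison, 6.03% of all genes were lower and 13.2% higher at 3 d, and 3.91% and 13.3% over the late times. The late share of higher fibroblast genes was near that of all genes. Of 8 skeletal muscle fibre genes, 6 were lower at 3 d and 4 over 14, 21 and 28 d, while 1 was higher at 21 d and 2 at 28 d, and their summed FPKM was 38953 to 41493 at 0 d, 22793 to 26442 at 3 d and 21904 to 27789 over the late times. The 2 that were higher at 28 d, named after their values were seen, were the myosin heavy chain genes Myh7, from 30.7 ± 11.3 FPKM at 0 d to 129 ± 46.2 at 28 d, and Myh1, from 501 ± 150.3 to 918 ± 187 FPKM (mean ± SD, n = 4). All 6 macrophage genes were higher at 3 d and over the late times, and their summed FPKM went from 139 to 206 at 0 d to 288 to 984 at 3 d and 398 to 935 at 14, 21 and 28 d. Of 6 adipocyte genes, 3 were lower at 3 d and none over the late times, with summed FPKM of 150.3 to 302 at 0 d, 44.5 to 217 at 3 d and 132 to 606 late. Of 6 endothelial genes, 3 were lower at 3 d and 1 over the late times, or 5 after median-ratio scaling, with summed FPKM of 99.1 to 114 at 0 d, 71.3 to 90.7 at 3 d and 66.5 to 95.6 late. Of 6 fibroblast genes, 1 was lower at 3 d and 1 higher over the late times, with summed FPKM of 473 to 615 at 0 d, 274 to 682 at 3 d and 557 to 770 late. None of 5 red blood cell genes passed at 3 d or over the late times as deposited, but 3 were lower at 3 d after median-ratio scaling. Their summed FPKM was 226 to 492 at 0 d, 181 to 314 at 3 d and 189 to 600 late. Without the 3 d sample that stood apart, the genes lower at 3 d numbered 7 for muscle fibres, 1 each for adipocytes and endothelium and 0 for fibroblasts, of which 2 were then higher, and the 6 macrophage genes were still higher. The summed FPKM of the other samples of 3 d was 497 to 984 for macrophages, 488 to 682 for fibroblasts, 50.1 to 217 for adipocytes and 76.3 to 90.7 for endothelium. None of these lists had a gene at 0 in every sample of a time. The part of these cell types in the changes of the 47 members was not tested.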

How the data were processed

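RNA was sequenced from 32 GAS muscles, 4 at each of 8 times. The authors prepared libraries with a VAHTS kit, sequenced them as paired-end reads and deposited 1 table of FPKM values per gene and sample. The submitters' processing notes name CASAVA, HISAT2 2.1.0, DESeq2 and the GRCm38 build, and the read counter and annotation were not given in the sources used here. Gene names were taken from GENCODE mouse release 21, which held 33356 of the 33397 genes (99.9%), with 41 unmatched. Because FPKM steps reflect whole fragments, fragments were recovered from them (99.3% to 99.4% of values under 200 fragments were whole within 0.05) to give depths, and no count model was run.

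The 22071 genes that reached 0.1 FPKM in 4 or more samples were tested with limma 3.58.1 in R 4.3.3 on log2(FPKM + 1), in 1 fit over all 8 times without covariates and with a variance trend, with Benjamini-Hochberg adjustment over all genes tested. The fit was also run on simulated data, and the outcome is not given here. Tables and figures were made with Python 3.11.15, numpy 2.4.6, pandas 2.3.3 and matplotlib 3.10.9. Intervals were not given for single values, since the spread over samples was used. The smallest two-sided p of an exact permutation test of 4 against 4 samples is 0.0286.

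The 47 members and all lists were chosen with earlier results of these data known. Members given sample by sample were the 8 with the largest absolute log2 fold change at any time, the largest of each role over 14, 21 and 28 d, and Cpt1b and Cs. Sample values of further members follow where a result turned on them and were chosen after their values were seen. From the other lists, the 3 largest late changes and Cpt1a, Dld and Sdha to Sdhd were named, 1 further gene of this rule is not reported here, and Acot1 was chosen after its values were seen. The comparison of 7 d with 3 d, the background of genes averaging 10 FPKM or more, the AGGTCA motif and the values of every member without 1 sample of 3 d and with TPM, and those of the other lists without that sample, were added after the values were seen. Alternatives were median-ratio scaling, TPM, scaling without mitochondrial genes, other filters and pseudocounts, no fold threshold and leaving out each sample. Promoters were read from RefSeq (GRCm38.p6).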

Additional observations from a re-analysis of the deposited data

Results flagged for a closer look

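Among the 14 members chosen by rule to be given sample by sample, 112 groups of 4 samples were examined. In 5 of them 1 sample lay apart from the other 3 by Dixon's criterion. Further members whose sample values are printed were not examined in this way. Chance marks about 1 group in 20, or 5.6 of 112. Idh2 had a low sample at 5 d, 22.9 FPKM against 27.3 to 27.8 in the others. Acaa2 had a low sample at 3 d, 24.1 FPKM against 34.5 to 35.8. Acadm had a high sample at 1 d, 118 FPKM against 87.2 to 91.2. Eci1 had a low sample at 28 d, 21.5 FPKM against 24.2 to 24.6. Etfdh had a high sample at 7 d, 18.8 FPKM against 15.4 to 15.8. The 5 values came from 5 different samples.

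The change from 0 d differed between 2 times, by limma's direct comparison of those times, in 12 members. Between 3 and 7 d the log2 fold change was -2.92 for Acot2, -1.72 for Pdk4, -1.24 for Ucp3, -1.13 for Cd36, -1.06 for Hadhb, -0.95 for Acadl, -0.88 for Mlycd, -0.76 for Acacb, -0.70 for Eci2 and -0.67 for Acadvl. It was 0.66 for Idh2 and 0.61 for Lpl over the same interval. Between 7 and 28 d it was 0.64 for Idh2.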

How the results depend on the processing

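Of the counts recomputed under the alternatives, 761 stayed within 1.5 times the reported count and 53 did not. Single values were recomputed under every alternative for 14 members at 2 comparisons each, where 1092 kept their side of the threshold, 9 passed where the reported value had not and 3 no longer passed. Across the 47 members with TPM, further calls were lost and small estimates changed sign, such as those of Ogdh at 3 d (0.04 with TPM) and Acadl at 5 d (0.18). After median-ratio scaling, lower members numbered 5, 34, 37, 33, 29 and 34 at 1, 5, 7, 14, 21 and 28 d and 34 over 14, 21 and 28 d, and higher members 3 at 1 d, 1 at 14 d and 0 for 7 d against 3 d. With TPM, lower members numbered 1, 10, 12 and 13 at 1, 5, 7 and 14 d, and higher members 8 at 1 d and 2 each at 5, 7 and 28 d and over the late times. Without mitochondrial genes in the scaling, 1 member was lower at 1 d and 1 higher at 7 d against 3 d. With a pseudocount of 0.1, 2 were higher at 7 d. For the counts with no fold threshold, the share of all genes is not given here, so they cannot be set against it. With no fold threshold, lower members numbered 17, 28, 35, 37, 34, 34 and 34 at the 7 times, 34 over the late times, 3 at 28 d against 7 d and 20 at 7 d against 3 d, and higher members 12, 3, 3, 4, 2 and 2 at 1, 5, 7, 14, 21 and 28 d, 3 over the late times, 6 at 28 d against 7 d and 8 at 7 d against 3 d. The cause was not tested.

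Leaving out 1 sample at a time, lower members ranged from 1 to 3 at 1 d (1 without 0 d sample 1 or 2), 15 to 18 at 3 d, 16 to 20 at 5 d, 20 to 22 at 7 d, 17 to 20 at 14 d, 15 to 17 at 21 d, 18 to 20 at 28 d, 17 to 18 over the late times, 0 to 0 at 28 d against 7 d and 10 to 10 at 7 d against 3 d. Higher members ranged from 4 to 6 at 1 d, 6 to 8 at 3 d, 1 to 1 at 5 d, 1 to 2 at 7 d (2 without 0 d sample 1 or 2 or 7 d sample 1 or 4), 2 to 2 at 14 d, 1 to 1 at 21 d, 1 to 2 at 28 d (2 without 28 d sample 3 or 4), 1 to 1 over the late times, 0 to 1 at 28 d against 7 d (0 without 28 d sample 1) and 0 to 2 at 7 d against 3 d (0 without 3 d sample 1, 1 without 3 d sample 4 or 7 d sample 4). Over the late times Cpt1b, at -0.58 as reported, passed with a pseudocount of 0.1 (-1.10), median-ratio scaling (-0.77), TPM (-0.74) and scaling without mitochondrial genes (-0.61) and without 0 d sample 1, 14 d sample 2, 21 d sample 1 or 28 d sample 4 (-0.69 to -0.51 over all samples left out in turn), and Pdk4 passed with TPM (0.68). Etfdh at 14 d (-0.55) and over the late times (-0.55) and Acot13 over the late times (-0.52) did not pass with TPM. No paired analysis was possible because the table's columns carry letters that the labels tie to no replicate number. Low fragment numbers limit Cpt1b and Etfb among the 47.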
